A study of Homo sapiens with 7 samples.

Results

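The PAX family comprises 9 human genes, PAX1 to PAX9, and all 9 were found by symbol among the 20162 protein-coding genes of the GENCODE annotation on hg19. They were chosen by name, and every deposited interval lying over a PAX gene body or within 10 kb of it was taken. The data are ChIP-seq peak lists from HCT116, an established human colorectal carcinoma line, in which untreated cultures of 200000 cells per well were cross-linked and sheared with the PIXUL 96-well sonicator for 6 min in 100 µl. Lists for 6 antibodies were used, against H3K4me1, H3K4me3, H3K9Ac, H3K27me3, H3K36me3 and CTCF, each from 1 well and 1 library. The H3K27Ac library of the same series was not analysed here. There were no replicates, so no test and no replicate error could be given. Read counts were not given, which leaves the sequencing depth unknown, and an absent interval means that none was listed and not that the mark was absent.

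PAX proteins are transcription factors that bind DNA through a paired domain and set up organs and cell lineages in the embryo. They fall into 4 subgroups by sequence and domain structure, namely PAX1 with PAX9, PAX2 with PAX5 and PAX8, PAX3 with PAX7, and PAX4 with PAX6. Many are known targets of Polycomb complexes in cells outside their own lineages, and H3K27me3 is the mark those complexes write. H3K4me3 and H3K9Ac mark active promoters, H3K4me1 marks enhancers and promoter flanks, H3K36me3 marks transcribed gene bodies, and CTCF is the DNA-binding protein of insulators and chromatin loop ends.

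The values of an interval are its fold enrichment, the ChIP signal divided by the background that the peak caller estimated, and −log10 q, where q is the p-value corrected over the genome. Both belong to the whole interval and not to the part inside a gene. An interval was counted as past the limits at a q-value under 1e-03 with a fold enrichment over 2 for H3K4me1 and H3K27me3, and at a q-value under 1e-10 with a fold enrichment over 5 for the other histone marks and, by extension, for CTCF. Fold enrichments were not compared between antibodies as amounts of the marks. Positions are given in kb from the canonical transcription start site (TSS), positive in the direction of transcription, and a peak was at the TSS when it overlapped the 1 kb on either side of it.

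The lists held between 16112 intervals for H3K4me3 and 55270 for H3K27me3, and the share past the limits ran from 0.225% for H3K36me3 and 2.81% for H3K27me3 to 79.1% for H3K4me3. Of 12 genes that mark colorectal epithelium, 7 had H3K4me3 past the limits at the TSS, among them EPCAM, CDH1 and CDX2, while KRT20, VIL1, CDX1, LGR5 and CEACAM5 did not. That count is near the share of all protein-coding genes, 59.1%, and so does not set these markers apart. Among 12 markers of other cell types with an entry under their symbol, 1 did, the collagen gene COL1A1.

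Over the 9 PAX genes and 10 kb around them the lists held 132 intervals, of which 49 were past the limits. PAX5 had 31 listed and 11 past the limits, PAX2 29 and 14, PAX7 22 and 4, and PAX8 21 and 8. PAX9 had 8 listed and 4 past the limits, PAX6 7 and 3, PAX3 6 and 3, and PAX1 and PAX4 had 4 and 1 each. A longer gene offers a wider window, and PAX5 spans 201 kb and PAX4 7.85 kb, although PAX3, at 99.1 kb, had fewer listed intervals than PAX8 at 62.9 kb. By antibody, 19 of 25 H3K4me1 intervals were past the limits (63.9% over the whole list), 6 of 8 for H3K4me3 (79.1%), 5 of 16 for H3K9Ac (37.2%), 7 of 48 for H3K27me3 (2.81%), 0 of 8 for H3K36me3 (0.225%) and 12 of 27 for CTCF (54.8%). H3K27me3 had the most listed intervals at PAX genes and also the longest list over the genome. Whether list length accounts for that count was not tested.

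**Figure D1:**
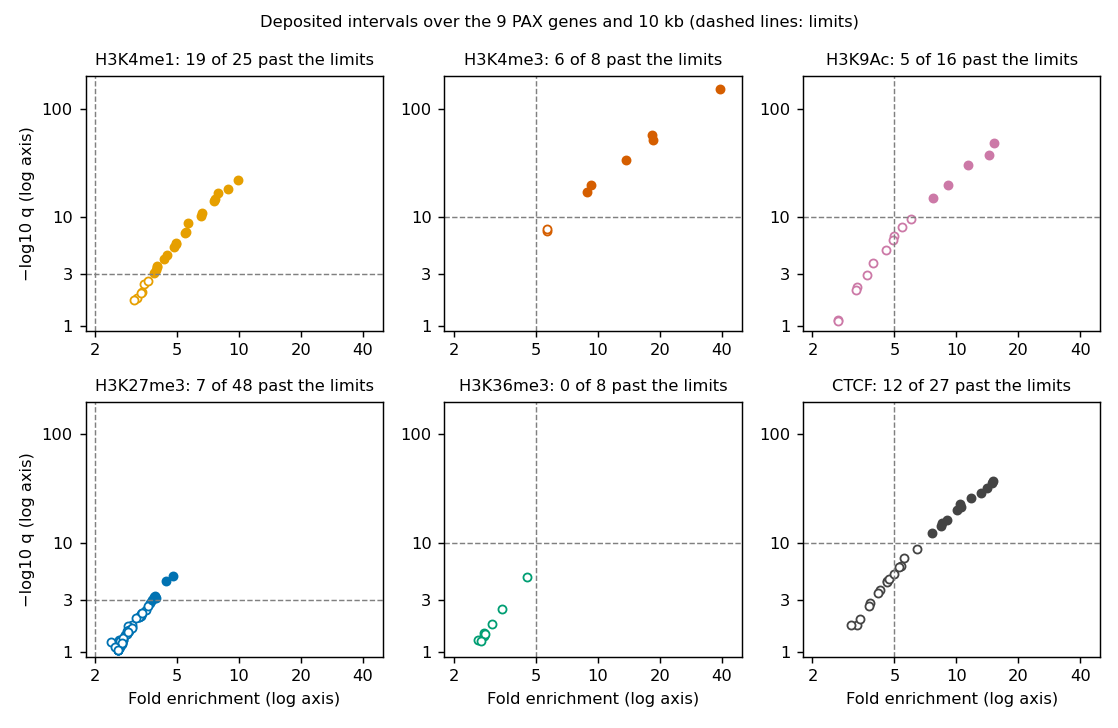
Fold enrichment against −log10 q, both on log axes, of the 132 deposited intervals over the 9 PAX genes and 10 kb, with 1 panel per antibody; filled points are past both limits (dashed lines) and open points are listed only. In the H3K27me3 panel 7 of 48 points are filled, most of them close to the line at 3, and in the H3K4me3 panel the PAX8 interval stands alone at 39.4 and 152.

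At the TSS the family split into genes with active marks, genes with H3K27me3 and genes with neither. PAX2, PAX6 and PAX9 carried H3K4me3 past the limits, 3 of 9 members beside 59.1% of all protein-coding genes. H3K9Ac passed at PAX2 and PAX6, 2 of 9 beside 58.5%, and H3K4me1 at PAX2 and PAX9, 2 of 9 beside 49.1%. PAX3 and PAX4 carried H3K27me3 past the limits, 2 of 9 beside 1.22% of all genes. CTCF passed at PAX2 alone among the 9, beside 13.6%, and H3K36me3 at 0 of 9, beside 0.298%. No member had both H3K4me3 and H3K27me3 at its canonical TSS, listed or past the limits.

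Taking every listed interval raised the member counts at the TSS for H3K4me1, H3K9Ac and CTCF and left the others as they were. The shares of all genes rose for every antibody. H3K4me1 was then listed at 3 members (61.2% of all genes), H3K4me3 at 3 (61.6%) and H3K9Ac at 3 (64.3%), in each case PAX2, PAX6 and PAX9. H3K27me3 stayed at PAX3 and PAX4, 2 of 9, while its share of all genes rose from 1.22% to 9.60%. H3K36me3 stayed at 0 beside 6.49%, and CTCF was added at PAX5, making 2 of 9 beside 29.5%. PAX1, PAX7 and PAX8 had no listed interval of any of the 6 antibodies at the canonical TSS.

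**Figure D2:**
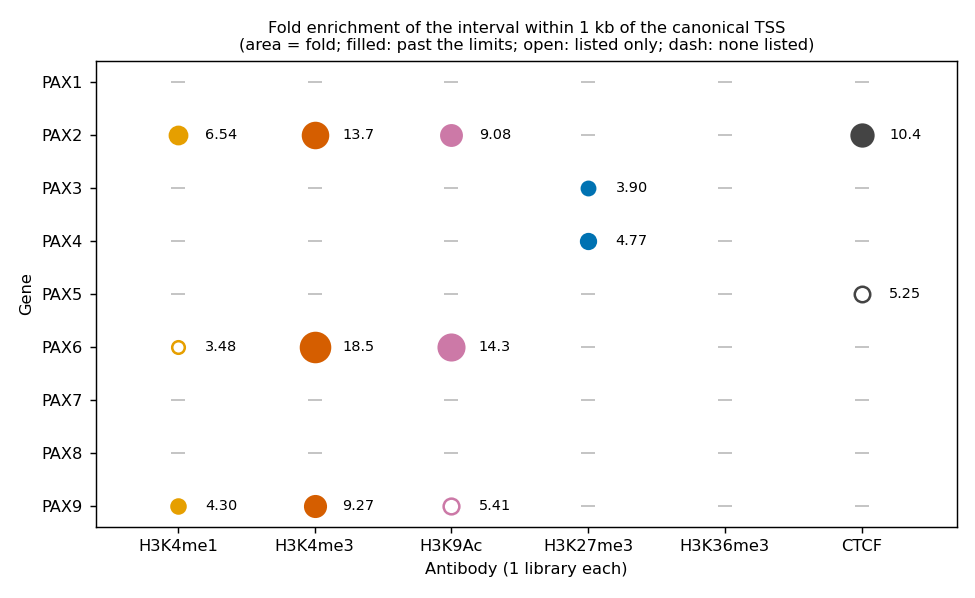
Fold enrichment of the interval within 1 kb of the canonical TSS for the 9 PAX genes (rows) and the 6 antibodies (columns, 1 library each); circle area is proportional to fold enrichment, filled circles are past the limits, open circles are listed only, and dashes mean that none was listed. PAX2, PAX6 and PAX9 hold all values for H3K4me1, H3K4me3 and H3K9Ac, and PAX3 (3.90) and PAX4 (4.77) hold all values for H3K27me3.

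The combination of marks past the limits at a PAX TSS was shared with many or few other genes. The state with no mark, found at PAX1, PAX5, PAX7 and PAX8, was that of 6828 protein-coding genes, or 33.9%. H3K27me3 alone, the state of PAX3 and PAX4, was that of 141 genes, or 0.699%. H3K4me3 with H3K9Ac, the state of PAX6, was that of 2494 genes, or 12.4%. H3K4me1 with H3K4me3 but without H3K9Ac past the limits, the state of PAX9, was that of 146 genes, or 0.724%. The state of PAX2, with H3K4me1, H3K4me3, H3K9Ac and CTCF, was that of 1829, or 9.07%. These counts depend on the limits. By listed intervals PAX6 and PAX9 had the same state, H3K4me1 with H3K4me3 and H3K9Ac, which was that of 5699 genes, or 28.3%. By listed intervals H3K27me3 alone, at PAX3 and PAX4, was the state of 1227 genes, or 6.09%. That of PAX2 was the state of 4432, or 22.0%.

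The stretches before the TSS of 4 members are shown because they set these states beside CpG content. The state is that within 1 kb of the TSS and not always that of the stretch itself. At PAX3 the H3K27me3 interval past the limits began 0.316 kb downstream of the TSS, and no listed interval lay over the stretch shown. Each holds the 250 bases before the canonical TSS on hg19, read 5′ to 3′ on the strand of the gene, with CpG dinucleotides in capitals. PAX2 lies at chr10:102505089-102505338 on the plus strand, PAX3 at chr2:223163718-223163967, PAX4 at chr7:127258197-127258446 and PAX5 at chr9:37034266-37034515, the last 3 on the minus strand.
PAX2, with H3K4me3, H3K9Ac, H3K4me1 and CTCF: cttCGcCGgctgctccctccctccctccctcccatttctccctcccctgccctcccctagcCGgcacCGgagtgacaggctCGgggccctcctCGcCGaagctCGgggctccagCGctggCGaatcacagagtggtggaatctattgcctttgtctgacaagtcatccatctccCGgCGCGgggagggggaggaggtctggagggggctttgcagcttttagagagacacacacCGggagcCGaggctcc
PAX3, with H3K27me3 alone: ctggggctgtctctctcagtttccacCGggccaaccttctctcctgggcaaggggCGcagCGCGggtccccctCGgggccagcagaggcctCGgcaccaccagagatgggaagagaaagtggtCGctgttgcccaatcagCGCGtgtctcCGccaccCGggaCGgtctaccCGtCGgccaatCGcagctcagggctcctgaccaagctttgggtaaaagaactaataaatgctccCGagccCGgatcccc
PAX4, with H3K27me3 alone: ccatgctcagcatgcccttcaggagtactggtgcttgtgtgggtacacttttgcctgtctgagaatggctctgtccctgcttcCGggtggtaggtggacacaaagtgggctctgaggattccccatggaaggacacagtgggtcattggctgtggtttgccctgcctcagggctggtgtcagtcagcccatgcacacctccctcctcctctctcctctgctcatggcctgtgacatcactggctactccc
PAX5, with no mark past the limits: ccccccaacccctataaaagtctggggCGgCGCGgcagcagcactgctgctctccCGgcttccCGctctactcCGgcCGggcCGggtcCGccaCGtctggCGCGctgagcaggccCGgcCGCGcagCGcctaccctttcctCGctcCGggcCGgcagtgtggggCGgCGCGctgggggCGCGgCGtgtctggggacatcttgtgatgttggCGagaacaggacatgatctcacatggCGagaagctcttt

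The stretch of PAX5 held 27 CpG, that of PAX3 17, that of PAX2 15 and that of PAX4 1. Over 500 bp on each side of the TSS, the observed to expected CpG ratio, which is about 1 where CpG is not depleted, was 0.885 at PAX5, 0.818 at PAX7, 0.755 at PAX2, 0.721 at PAX1, 0.661 at PAX3, 0.660 at PAX6, 0.645 at PAX9, 0.382 at PAX8 and 0.0616 at PAX4. The median over all protein-coding genes was 0.723, that over the 11924 genes with H3K4me3 past the limits at the TSS was 0.799, and that over the 8238 without was 0.319. PAX5 and PAX7 were therefore above the median of the genes with H3K4me3 while carrying no H3K4me3 at the TSS, and PAX4, which carried H3K27me3, had a lower ratio than all but 0.615% of genes. The 3 PAX genes with H3K4me3 were below the median of the genes with that mark.

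**Figure D3:**
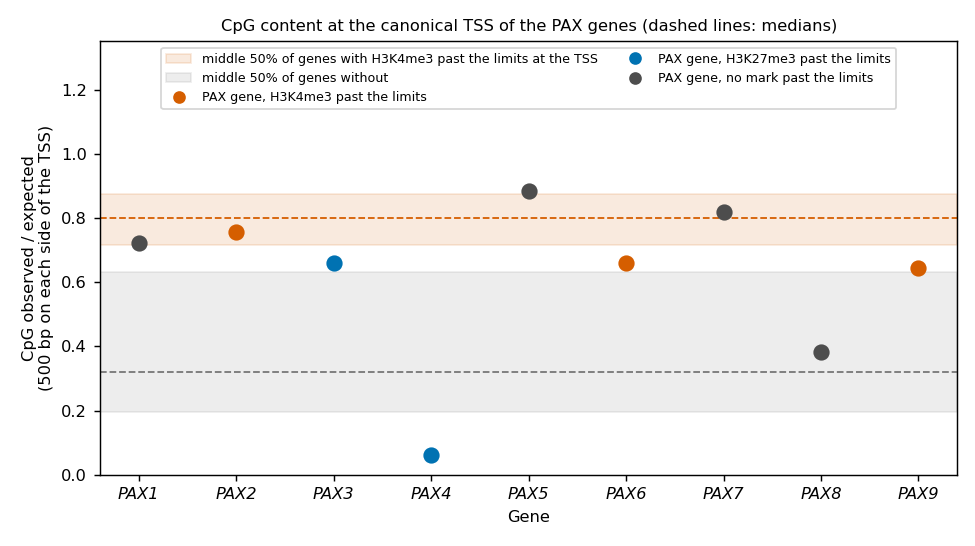
Observed to expected CpG ratio over 500 bp on each side of the canonical TSS of each PAX gene (points, coloured by the mark past the limits there), with the median (dashed line) and the middle 50% (band) of the genes with H3K4me3 past the limits at the TSS (orange) and of those without (grey). PAX5 at 0.885 and PAX7 at 0.818 lie above the orange median without H3K4me3, and PAX4 at 0.0616 lies below both bands.

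In the 250 bases before the TSS, searched on both strands, the GC box GGGCGG occurred at 3 of 9 PAX genes (PAX1, PAX5, PAX9) and at 58.6% of all protein-coding genes. The CCAAT box, searched as CCAAT, occurred at 7 of 9, all but PAX2 and PAX5, and at 34.1% of all genes. The TATA box, searched as TATAAA, occurred at PAX5 alone among the 9, and at 9.40% of all genes. These are matches of letters and not measured binding sites.

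Within the gene body and 10 kb, H3K27me3 past the limits lay at PAX2, PAX3, PAX4, PAX5 and PAX7, 5 of 9 members beside 3.94% of all genes. H3K4me1 passed at 6 of 9 (71.9%), CTCF at 6 of 9 (62.4%), H3K4me3 at 4 of 9 (69.1%), H3K9Ac at 3 of 9 (68.3%) and H3K36me3 at 0 of 9 (0.789%). Counting every listed interval gave 6 of 9 for H3K27me3 (30.0%), 6 of 9 for H3K4me1 (81.3%), 6 of 9 for CTCF (78.9%), 5 of 9 for H3K4me3 (72.9%), 6 of 9 for H3K9Ac (79.1%) and 3 of 9 for H3K36me3 (65.9%). The shares of all genes are for windows around genes with a median length of 27.2 kb, whereas the median length of the 9 PAX genes was 62.9 kb, and a longer window meets more intervals.

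PAX3, which guides neural crest and muscle progenitors, showed 1 mark alone. The 6 intervals listed in the window of the gene, which lies at chr2:223064606-223163717 on the minus strand, were all H3K27me3. The 3 past the limits ran from 0.316 to 44.1 kb, from 45.3 to 65.6 kb and from 67.2 to 133 kb, with widths of 43817, 20294 and 65936 bp. They followed one another with short gaps across the gene and on past its 3′ end, and together they covered 96.9% of the gene body. Their fold enrichments were 3.90, 3.88 and 3.92, and their −log10 q-values 3.18, 3.20 and 3.23, all just past the limit of 3. The widest was the 22nd widest of the 1552 H3K27me3 intervals past the limits, and by the share of the gene body covered PAX3 ranked 69th of all protein-coding genes.

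The interval nearest the PAX3 TSS also held the start of CCDC140, a long non-coding RNA gene on the opposite strand. The remaining 3 intervals lay upstream, between −9.60 and −2.09 kb, with fold enrichments of 2.87, 3.35 and 3.33 and −log10 q-values from 1.46 to 2.17, below the limit. The nearest CTCF and H3K4me1 intervals past the limits lay 18.8 and 18.5 kb from the TSS, and the nearest H3K4me3 lay 125 kb away. No interval of the 5 other antibodies was listed in the window.

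PAX7, the partner of PAX3 and a regulator of muscle satellite cells, had 22 listed intervals and a different layout. It occupies chr1:18957340-19075360 on the plus strand. Of 13 listed H3K27me3 intervals 1 was past the limits, from 63.4 to 68.6 kb in the body, with a fold enrichment of 3.97 (−log10 q 3.12). Listed H3K27me3 covered 28.5% of the body, and the part past the limits 4.43%, against 96.9% at PAX3. The widest listed H3K27me3 interval of PAX7 ran from 2.33 to 15.3 kb over exons 2 to 4, with a fold enrichment of 3.61 (−log10 q 2.65), and so stood just under the limit.

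Inside that interval, from 12.3 to 13.5 kb, lay an H3K4me1 interval past the limits with a fold enrichment of 7.61 (−log10 q 14.1). An H3K4me3 interval of 748 bp and an H3K9Ac interval of 1261 bp at the same place reached fold enrichments of 5.68 and 4.97, with −log10 q-values of 7.80 and 6.78, and did not pass. All 3 lay wholly within the listed H3K27me3 interval. A further H3K4me1 interval past the limits lay from 37.1 to 39.5 kb (fold enrichment 4.97), and 1 CTCF interval past the limits from 50.3 to 51.3 kb (fold enrichment 8.52).

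PAX4, which acts in the beta cells of the pancreatic islet, was the shortest member and had H3K27me3 as its only listed mark. The gene spans chr7:127250346-127258196 on the minus strand. An interval of 7419 bp from −2.83 to 4.59 kb covered the TSS and exons 1 to 7 of 12, with a fold enrichment of 4.77 (−log10 q 5.01). This was the highest H3K27me3 value of the family and the 78th highest of the 1552 past the limits. It covered 58.4% of the gene body, and with a second listed interval at the 3′ end (fold enrichment 2.59, −log10 q 1.03) the listed share was 76.1%. The weak intervals on either side of the gene, of which 1 reached into FSCN3, an actin-bundling protein gene, had fold enrichments of 2.40 and 2.59.

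**Figure D4:**
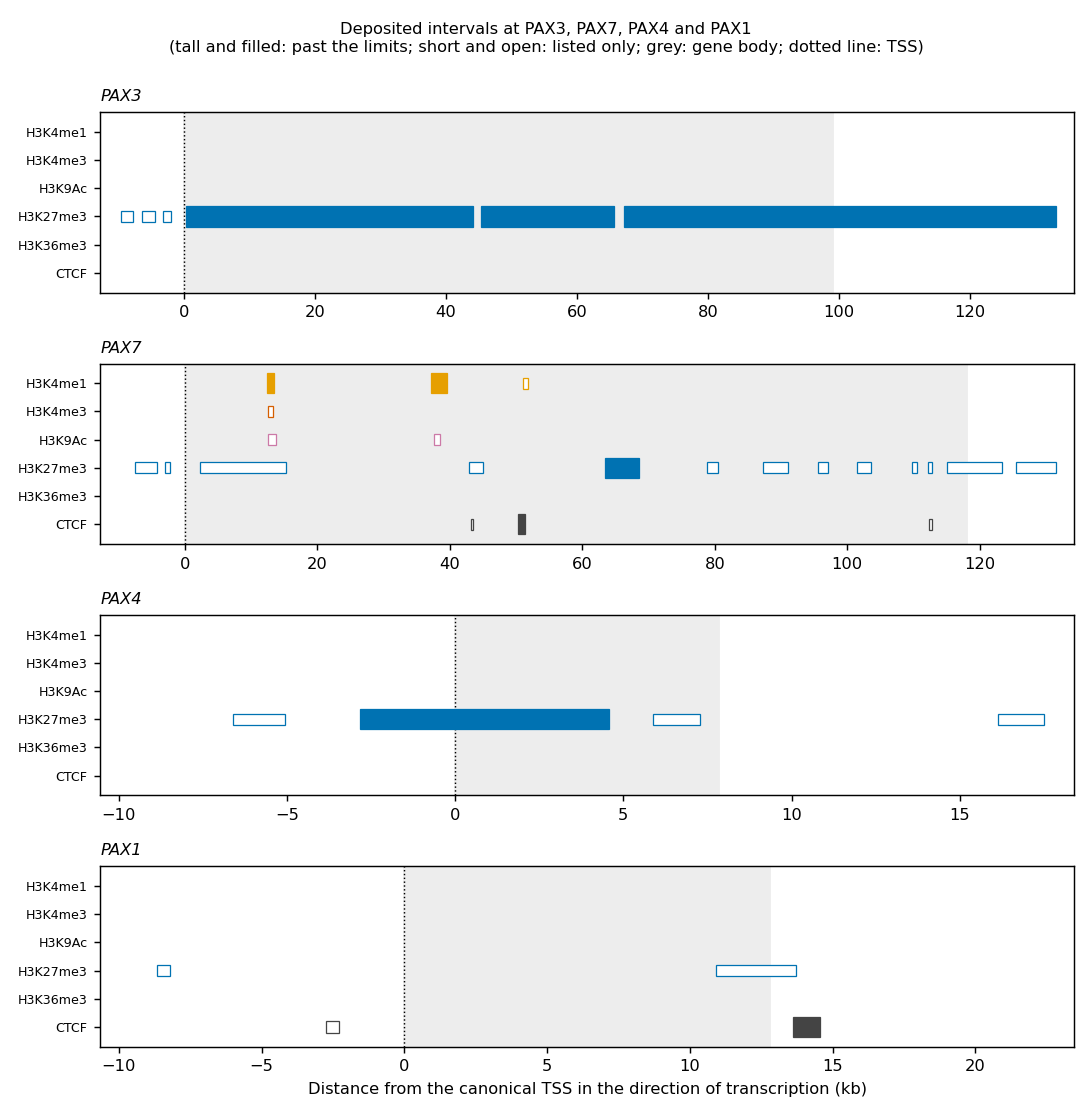
Deposited intervals at PAX3, PAX7, PAX4 and PAX1 by distance from the canonical TSS in kb, in the direction of transcription; tall filled boxes are past the limits, short open boxes are listed only, grey is the gene body and the dotted line is the TSS. H3K27me3 fills 96.9% of the PAX3 body and 58.4% of the PAX4 body, PAX7 holds 1 interval past the limits among 13, and PAX1 holds none past the limits.

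PAX6, the subgroup partner of PAX4 and a regulator of the eye, brain and endocrine pancreas, had no listed H3K27me3, H3K36me3 or CTCF interval in its window. PAX6 is at chr11:31806327-31839509 on the minus strand and has 81 annotated transcripts. Beside the canonical TSS, from 0.332 to 1.57 kb, lay an H3K4me3 interval of 1235 bp with a fold enrichment of 18.5 (−log10 q 51.7). An H3K9Ac interval from 0.177 to 1.74 kb had a fold enrichment of 14.3 (−log10 q 37.6). The overlapping H3K4me1 interval, at a fold enrichment of 3.48 (−log10 q 2.41), was listed but did not pass. The H3K4me3 interval lay downstream of the canonical start and contained 5 other annotated PAX6 starts.

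At the outer promoter of PAX6 H3K4me1 was the mark that passed, under its looser limits, although the order of the 3 fold enrichments was the same as at the canonical TSS. From −7.14 to −5.34 kb an H3K4me1 interval containing 6 annotated PAX6 starts passed the limits with a fold enrichment of 3.96 (−log10 q 3.30). The H3K4me3 interval there had a fold enrichment of 5.65 (−log10 q 7.52), and the H3K9Ac interval one of 4.53 (−log10 q 4.99), so that neither passed. The H3K4me1 interval also overlapped PAUPAR, a long non-coding RNA transcribed from the opposite strand, and ENSG00000285283, a protein-coding gene on that strand. The nearest CTCF interval past the limits was 59.6 kb from the canonical TSS.

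PAX2, which builds the kidney, the optic nerve and the inner ear, held the most intervals past the limits of the family. Its gene lies at chr10:102495153-102589701 on the plus strand, and its canonical TSS lies inside the annotated gene at 102505339. H3K4me3, H3K9Ac and H3K4me1 passed together at 3 places, upstream of the gene, at the TSS and at the 3′ end. At the TSS the fold enrichments were 13.7 for H3K4me3, 9.08 for H3K9Ac, 6.54 for H3K4me1 and 10.4 for CTCF. At the 3′ end, from 80.9 to 83.8 kb over exons 9 and 10, the H3K4me3 interval was stronger than at the TSS, with 18.4, a width of 2928 bp and a −log10 q of 57.0 against 33.6. H3K9Ac (11.3) and H3K4me1 (9.87) were likewise higher there than at the TSS, and CTCF (5.54, −log10 q 7.24) did not pass. The H3K4me1 interval at the 3′ end had a higher fold enrichment than 99.6% of the 50521 in its list.

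The upstream place of PAX2 was the only one in the family where H3K4me3 and H3K27me3 past the limits overlapped. The H3K4me3 interval from −16.6 to −14.2 kb had a fold enrichment of 8.86 and a width of 2426 bp. The H3K27me3 interval from −15.7 to −13.8 kb had a width of 1927 bp and a fold enrichment of 4.44 (−log10 q 4.49). They shared 1532 bp, or 63.1% of the first and 79.5% of the second. H3K9Ac (7.66), H3K4me1 (7.90) and CTCF (11.8) passed at the same place, so that 5 of the 6 antibodies had an interval past the limits there. The CTCF intervals here and at the TSS spanned 2605 and 2620 bp, against a median of 739 bp for CTCF past the limits. These are separate lists from a cell population, and whether the marks sat on the same chromosomes cannot be told from them.

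The other 12 H3K27me3 intervals at PAX2 ran through the body and past its 3′ end with fold enrichments from 2.59 to 3.40, and none passed. Those in the body covered 16.9% of it. A CTCF interval past the limits lay at 71.8 kb (fold enrichment 7.595), and an H3K4me1 interval at 29.3 kb (4.01).

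PAX5, which commits progenitors to the B-cell lineage, had H3K4me1 and CTCF within the body but no listed H3K4me3. Its gene lies at chr9:36833266-37034265 on the minus strand. The TSS had 1 listed interval, CTCF from −0.794 to −0.177 kb with a fold enrichment of 5.25 (−log10 q 6.03), which did not pass. In the body, 5 of 7 listed H3K4me1 intervals passed, with fold enrichments of 4.47, 4.01, 5.48, 3.89 and 5.53 at 6.00, 37.7, 53.0, 97.5 and 109 kb. The 2 listed H3K9Ac intervals overlapped the H3K4me1 intervals at 53.0 and 109 kb and were weak, at fold enrichments of 2.66 and 2.67.

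H3K27me3 flanked the PAX5 start on both sides. An interval of 19343 bp from −24.0 to −4.64 kb passed with a fold enrichment of 3.78 (−log10 q 3.01). Inside the gene, an interval of 22452 bp from 9.10 to 31.5 kb over exons 2 to 5 reached a fold enrichment of 3.69 (−log10 q 2.82), and another of 23649 bp from 120 to 144 kb one of 3.53 (−log10 q 2.44). Neither passed, although they were the wider ones. Listed H3K27me3 covered 29.0% of the PAX5 body and 0% was past the limits.

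PAX5 held the most CTCF intervals of the members, with 12 listed of which 5 passed. Its window, at 221 kb, was also the widest, so the count is not a density. The 5 fell into 2 groups, at 37.9 and 42.0 kb and at 160, 172 and 178 kb, with fold enrichments of 14.1 and 10.04 and of 13.2, 10.6 and 8.45. An exact match to the 12-letter core of the CTCF motif, searched on both strands, was found in 2 of the 12 CTCF intervals past the limits in the family, both at PAX5, beside 22.4% of the 24536 such intervals of the genome. They are printed because they are the motif letters under 2 of its 5 CTCF intervals past the limits, with 8 bases on each side and the core in capitals. The first lies at chr9:36873452-36873479 on the plus strand, in the interval at 160 kb, and the second at chr9:36991744-36991771 on the minus strand, in the interval at 42.0 kb, both in introns of the canonical PAX5 transcript.
PAX5 CTCF core 1: actggaggCCACCAGAGGGCagcaaaga
PAX5 CTCF core 2: agcaccagCCACCAGGTGGCaccatcga

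With at most 1 letter off the core, a match was found in 9 of the 12 CTCF intervals past the limits at PAX genes, beside 65.9% of all such intervals and 6.92% of the same intervals moved by 10000 bp. With at most 2 letters off it was found in all 12, beside 94.3% and 42.2%. Among those 12 the widest spanned 2620 bp, against a median of 739 bp over the genome, and a wider interval offers more places for a match. In the 15 CTCF intervals that were listed but did not pass, 0 held the exact core, beside 7.52% of such intervals in the genome. With at most 1 letter off 6 of them held it, and the share over the genome was not taken for that count.

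PAX8, needed for the thyroid follicular cell and the kidney, had the strongest H3K4me3 of the family, away from its canonical TSS. The gene runs over chr2:113973574-114036498 on the minus strand. From 41.7 to 44.2 kb, over exons 8 and 9 of 12, an H3K4me3 interval of 2542 bp had a fold enrichment of 39.4 (−log10 q 152), higher in fold enrichment than 98.3% of the 16112 H3K4me3 intervals. An H3K9Ac interval of 8629 bp from 36.5 to 45.1 kb had a fold enrichment of 15.3 and was wider than 97.5% of its list. H3K4me1 intervals lay on both edges of the H3K4me3 interval, at fold enrichments of 8.89 and 5.63.

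The PAX8 H3K4me3 interval contained the starts of 22 annotated transcripts of PAX8-AS1, a long non-coding RNA gene on the opposite strand, and of 2 transcripts of PAX8. ChIP signal has no strand, so the interval cannot be assigned to PAX8 or to PAX8-AS1. The H3K9Ac and the stronger H3K4me1 interval also overlapped RP11-65I12.1, an antisense transcript. The central 250 bases of the interval, at chr2:113993451-113993700 on hg19 and read on the minus strand of PAX8, are shown because they lie under the highest H3K4me3 value of the family, with CpG in capitals.
PAX8 H3K4me3 centre: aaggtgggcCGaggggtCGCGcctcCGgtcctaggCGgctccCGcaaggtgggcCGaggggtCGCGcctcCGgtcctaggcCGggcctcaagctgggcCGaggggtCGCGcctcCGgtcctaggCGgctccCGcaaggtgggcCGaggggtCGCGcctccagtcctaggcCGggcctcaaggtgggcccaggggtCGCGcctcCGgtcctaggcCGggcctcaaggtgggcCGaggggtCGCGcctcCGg

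This stretch held 29 CpG and 77.2% GC, against 11 CpG in the 250 bases before the canonical PAX8 TSS, and overlapped no annotated exon of a protein-coding gene. It was repetitive, with 83.2% of its letters equal to the letter 89 bases further on. How reads from the repeats were placed was not tested.

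H3K36me3 was listed at PAX8 in 6 intervals, more than at any other member, and none passed. The strongest, from 38.7 to 43.0 kb, had a fold enrichment of 4.54 (−log10 q 4.89) and overlapped the H3K4me3 interval by 1321 bp. The listed H3K36me3 covered 21.2% of the PAX8 body. PAX2 and PAX9 had 1 listed interval each (fold enrichments 2.81 and 2.72), and the other 6 members had none.

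Upstream of PAX8, from −12.0 to −2.85 kb, lay an H3K4me1 interval of 9156 bp with a fold enrichment of 7.66, past the limits and wider than 97.7% of its list. It lay wholly within an H3K9Ac interval of 11711 bp with a fold enrichment of 6.04 (−log10 q 9.72), just under the limit of 10. H3K4me1 also passed at the 3′ end of the gene (fold enrichment 4.98) and beyond it, over the start of PAX8-AS1 and the end of PSD4, a guanine nucleotide exchange factor gene (6.63). The CTCF interval at 29.1 kb, with a fold enrichment of 15.0, was the highest CTCF value of the family. PAX8 therefore had H3K4me1 past the limits upstream, within and beyond the gene, and H3K4me3 and H3K9Ac past them only within it. No interval was listed at its canonical start.

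PAX9, which forms the teeth and the pharyngeal pouches, carried H3K4me3 over its TSS. PAX9 is found at chr14:37126773-37148567 on the plus strand. The H3K4me3 interval of 978 bp from −0.221 to 0.756 kb had a fold enrichment of 9.27 (−log10 q 19.8), and the H3K4me1 interval from −0.576 to 0.772 kb had one of 4.30 (−log10 q 4.12). The H3K9Ac interval there, at a fold enrichment of 5.41 (−log10 q 8.16), missed the q-value limit. Among the 12428 genes with a listed H3K4me3 interval at the TSS, 7.93% had a lower fold enrichment than PAX9, 16.7% a lower one than PAX2 and 32.9% a lower one than PAX6. All 3 PAX promoters with H3K4me3 thus lay in the lower part of that range.

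Upstream of PAX9, from −6.19 to −5.23 kb, a CTCF interval passed with a fold enrichment of 14.9 (−log10 q 36.1). It contained an H3K4me1 interval past the limits (4.82) and a weak H3K9Ac interval (3.66, −log10 q 2.97). The place overlaps the long non-coding RNA genes ENSG00000283098 and ENSG00000258661. The nearest H3K27me3 past the limits was 157 kb from the TSS.

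**Figure D5:**
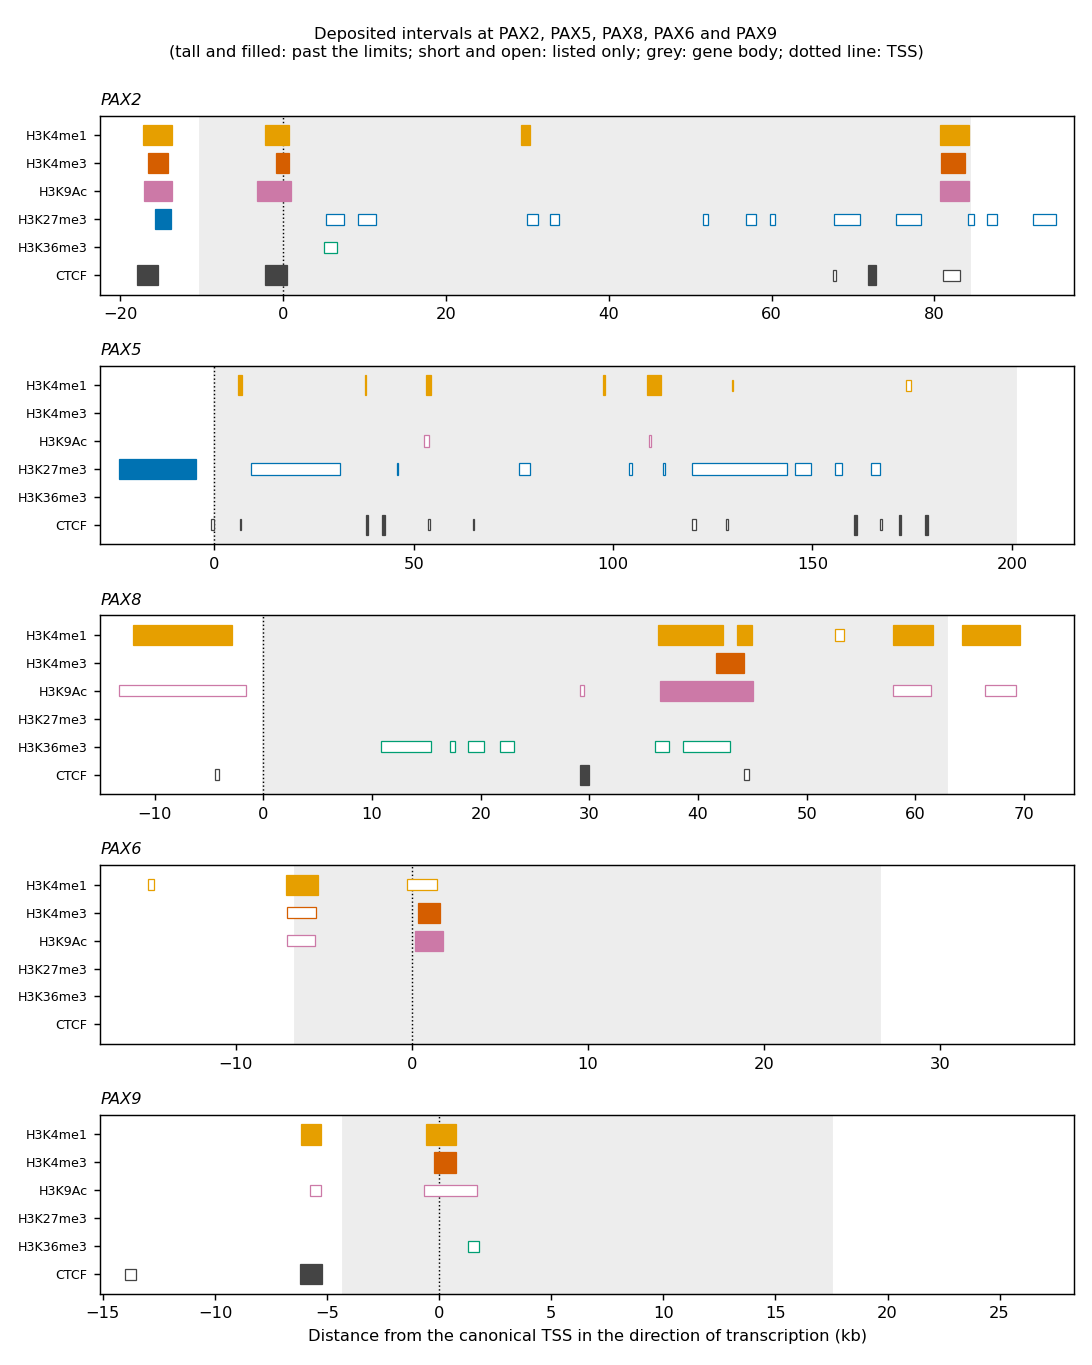
Deposited intervals at PAX2, PAX5, PAX8, PAX6 and PAX9 by distance from the canonical TSS in kb, in the direction of transcription; tall filled boxes are past the limits, short open boxes are listed only, grey is the gene body and the dotted line is the TSS. H3K4me3 passes at 3 places of PAX2, at 1 place of PAX8 that is 41.7 kb from the TSS, and at the TSS of PAX6 and PAX9, and PAX5 has none listed.

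PAX1, the partner of PAX9 and a gene of the sclerotome that gives rise to the vertebrae, had no listed H3K4me1, H3K4me3, H3K9Ac or H3K36me3 in its window. PAX1 takes up chr20:21686297-21699119 on the plus strand. A CTCF interval from 13.6 to 14.5 kb, beyond the 3′ end, passed with a fold enrichment of 8.95. Listed H3K27me3, at fold enrichments of 2.65 and 3.27, lay upstream over the lncRNA LINC01726 and at the last exon, and did not pass. The nearest H3K4me3 past the limits was 199 kb from the TSS. Within their windows CTCF passed at both PAX1 and PAX9, H3K4me1 and H3K4me3 at PAX9 and not at PAX1, and H3K9Ac, H3K27me3 and H3K36me3 at neither.

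The base composition of the intervals differed between antibodies over the PAX genes. The observed to expected CpG ratio had a median of 0.724 in the 8 H3K4me3 intervals (range 0.570 to 0.859), 0.502 in the 16 of H3K9Ac, 0.249 in the 27 of CTCF, 0.243 in the 25 of H3K4me1, 0.217 in the 8 of H3K36me3 and 0.196 in the 48 of H3K27me3. The H3K27me3 intervals over the PAX genes were thus mostly CpG-poor sequence of gene bodies and flanks, and 7 of the 48 were past the limits. The composition of the whole lists was not taken, so it cannot be told whether these medians are particular to the PAX genes. Widths reached 65936 bp for H3K27me3 and 2928 bp for H3K4me3, and whether width accounts for the ratios was not tested.

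The genes most like each member at the TSS were found by the distance between log2 fold enrichments over the 6 antibodies, with 1 in place of an absent interval. For PAX2 they were CFAP77, SUOX and RIMS2 (distances 0.18 to 0.27), for PAX6 MCCC2, HSDL2 and CIP2A (0.048 to 0.097), and for PAX9 TNFRSF10C, MAOA and B4GALNT4 (0.079 to 0.13). For PAX3 (PALM2AKAP2, SCN10A, TCIM) and PAX4 (DEFA1, DEFA1B, DEFA3) the likeness rests on the H3K27me3 value alone, and the 3 DEFA genes are near-identical copies with the same values.

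Genes that act with PAX factors or under them were taken as 8 lists of 68 genes. At the TSS, H3K4me1 passed at 25 of 68 (49.1% of all protein-coding genes), H3K4me3 at 25 (59.1%), H3K9Ac at 24 (58.5%), CTCF at 6 (13.6%), H3K27me3 at 0 (1.22%) and H3K36me3 at 0 (0.298%). No mark passed at 38 of 68, beside 33.9% of all genes. The counts of the single lists are of a few genes each and are read beside the 59.1% for H3K4me3. In the network of the EYA and DACH cofactors and their homeobox partners, which works with PAX proteins in the eye and kidney, H3K4me3 passed at 4 of 12 genes, with the highest values at SIX4 (fold enrichment 22.6), SIX5 (21.2) and EYA3 (16.7). Among 8 kidney and urogenital genes it passed at 4, with the highest values at WNT4 (16.8) and RET (16.1). Among 6 thyroid genes it passed at 1, NKX2-1 (7.22), and TG, which encodes thyroglobulin, had H3K27me3 past the limits in the body.

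H3K4me3 passed at 2 of 8 muscle and neural crest genes, the receptor gene MET (21.5) and the melanocyte regulator MITF (15.9). It passed at 0 of 8 B-cell genes, of which EBF1 had H3K27me3 past the limits in the body and 7 had no mark past the limits at the TSS. Among 9 eye and islet genes 1 passed, NKX6-1 (21.5), and 8 had no mark. In the sclerotome and pharyngeal list 5 of 8 passed, led by MSX1 (30.2), BMP4 (23.3) and OSR2 (21.3). Among Polycomb, H3K4 methyltransferase and corepressor genes 8 of 9 passed, led by EZH2 (39.7), PAXIP1 (39.3) and KMT2D (36.6). The counts of 5 of 8 and 4 of 8 are near the share of all genes. H3K27me3 at the TSS or in the body was thus found at 3 of 68 genes, beside 3.03% of all protein-coding genes.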

How the data were processed

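HCT116 chromatin was immunoprecipitated with 6 antibodies, 1 library each, and the authors deposited broad peak lists, with 1-based positions given here. Per the study's methods, reads were aligned to hg19 with BWA 0.7.12 and peaks were called with MACS2 at a broad cutoff of 0.1, while the submitters' processing notes list MACS 1.4.2, SAMtools 0.1.19 and bcl2fastq 2.20.0.442. The labels give single- or paired-end reads and the methods paired-end reads. The deposited fold enrichment is a ratio of ChIP to background. The deposited −log10 p and −log10 q were written by the peak caller for each interval. The limits on both are those of the methods, which name none for CTCF. No interval lay outside the chromosomes of GRCh37 or past their ends.

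Genes were those of GENCODE release 44 lifted to hg19. The TSS was that of the canonical transcript, or the 5′ end of the gene for those of the 20162 genes outside the 19881 with one. Overlaps of at least 1 bp were found with Python 3.11.15, numpy 2.4.6 and pandas 2.3.3, and were checked beside bedtools 2.31.1 in 12 counts, with 0 differing. Sequences were read from GRCh37 with pyfaidx 0.9.0.4 and samtools 1.23.1. The members and lists were chosen with earlier results of these data known. Named were all members, the annotated genes in their windows under intervals past the limits, from each list the genes with H3K27me3 past the limits at the TSS or in the body and the 3 highest in H3K4me3 at the TSS, and the 3 genes nearest in log2 fold enrichment. Genes outside this rule (the markers, FSCN3 and LINC01726) were named after their values were seen. Values of some list genes are not reported here. Counts were repeated with every deposited peak, with the 2 pairs of limits exchanged, with the fold limit times 1.5, with the q-value limit alone, and with TSS windows of 500 and 2500 bp, any annotated TSS, windows of 0 and 50 kb around the body, 50% overlap and merging within 1000 bp. Only values of 1 library were compared, so nothing was tested.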

Additional observations from a re-analysis of the deposited data

How the results depend on the processing

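No paired analysis was possible because each antibody has 1 library and nothing was tested. Of 98 recomputed counts, 79 stayed within 1.5 times the reported count and 19 did not. The counts are of the 9 PAX genes, and with counts this small 1 gene can carry a value past that range. With the 2 pairs of limits exchanged between the marks, H3K4me1 passed at the TSS of 1 gene and over the body and 10 kb of 3 genes, H3K27me3 at 0 and 0, H3K9Ac over the body and 10 kb of 5, H3K36me3 over that of 1, and CTCF at the TSS of 2. With all deposited peaks, H3K9Ac lay over the body and 10 kb of 6 genes, H3K36me3 over that of 3, and CTCF at the TSS of 2. With the TSS of any transcript, H3K4me1 passed at 5 genes and CTCF at 2. With 50% of the TSS window covered, H3K4me3 passed at 1 gene, H3K9Ac at 1 and H3K27me3 at 1. With the body alone, H3K27me3 passed at 3 genes. With the body and 50 kb, H3K9Ac passed at 5 genes, and the 132 listed intervals became 218 and the 49 past the limits became 85. The H3K27me3 counts rest on the limits above all, since 5 of its 7 intervals past them had a −log10 q of at most 3.23. A single library and an unknown depth leave the error of every value unknown.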
